A study of Homo sapiens with 66 samples.

Results

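ZBTB, ZSCAN and ZKSCAN genes encode zinc finger proteins, and their RNA was followed here after acute loss of nuclear pore and RNA export proteins and after a block of transcription. Members were the protein-coding genes whose symbol was ZBTB, ZSCAN or ZKSCAN followed by a number. There were 69 of them among 58051 gene identifiers: 41 ZBTB genes, called the BTB family below, and 28 ZSCAN and ZKSCAN genes, called the SCAN family. Of these, 39 BTB and 20 SCAN genes passed the filter on low counts and were tested.

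Proteins of both families bind DNA through C2H2 zinc fingers and differ in the domain at the amino end. The BTB (or POZ) domain pairs with itself and recruits corepressors, and ZBTB proteins are best known as transcriptional repressors that set cell fate, for example in lymphocytes. The SCAN domain is a vertebrate dimerization module, and the K of ZKSCAN stands for a KRAB repressor domain carried beside it. Loss of an export protein does not act on these proteins directly, and what was measured was the amount of their RNA in whole cells.

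All libraries came from DLD-1, a human colorectal cancer cell line. In the tagged lines a protein carried an auxin-inducible degron (AID), so that auxin (1 mM) caused its degradation through TIR1, which was inserted at the RCC1 locus. Each tagged line was derived from cells edited by CRISPR on both alleles, and it stands for a clone. The proteins were NXF1 (the general mRNA export receptor, genotype AID-FLAG-NXF1), GANP (the scaffold of the export complex TREX-2, AID-HA-GANP1), TPR (AID-NeonGreen-TPR), NUP153 (NUP153-NeonGreen-AID) and NUP50 (NUP50-NeonGreen-AID) of the nuclear basket, and RANGAP1 (GAP1-NeonGreen-AID), which drives Ran-dependent transport. Auxin was given for 2 h to the NXF1 line, 3 h to the GANP line, 2 or 8 h to the TPR, NUP153 and RANGAP1 lines and 3 or 9 h to the NUP50 line, and each was compared with untreated cells of the same line. The TPR line was sequenced in a plain set (2 h) and in a set labelled old (2 and 8 h), each with its own untreated libraries. Untagged DLD-1 cells (genotype original) received auxin for 2 h. AID-TPR cells were also treated with actinomycin D (ActD), which blocks transcription, for 2 h, with or without auxin. The libraries with ActD alone were compared with the untreated old AID-TPR libraries, and those with ActD and auxin with ActD alone. Each of the 22 groups had 3 libraries.

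The 66 libraries held 18943661 to 55411411 counts, and the 69 members took 30454 to 72069 of them, or 0.0968% to 0.185%. The epithelial markers EPCAM, CDH1, KRT8, KRT18, KRT19 and VIL1 summed to 5376 to 15579 CPM (counts scaled to library size) and the leukocyte, endothelial and stromal markers PTPRC, CD3E, PECAM1, COL1A1 and DCN to at most 2.30 CPM. CYP1A1, a target of the aryl hydrocarbon receptor, had log2 fold changes with auxin of 1.14 to 6.68 in the 11 comparisons of tagged lines without ActD, 2 of which did not pass an adjusted p of 0.05, whereas its log2 fold change was -3.84 in the libraries labelled auxin of DLD-1. The direction in DLD-1 therefore rests on its labels, and no member was called there in either direction. The degron acts on protein, and the mRNA of the tagged gene had log2 fold changes with auxin of 0.15 (NXF1), 0.26 (MCM3AP, which encodes GANP) and 0.17 (TPR, plain set), so it does not check the labels. In 24 libraries (DLD-1, NXF1, GANP and plain TPR) mitochondrial genes held no counts and in the other 42 they did, so the files were counted in more than a single way. Fold changes below come from comparisons made within a line and label set, except for ActD alone. Its libraries are not labelled old and were compared with old untreated ones.

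Levels of these genes were low to moderate. In untreated DLD-1 cells the median over the 39 tested BTB genes was 3.55 RPKM (reads per kilobase of exon, scaled to library size), and over the 20 SCAN genes it was 2.59 RPKM, beside 5.17 RPKM over all 13137 tested protein-coding genes. ZBTB2 was the highest BTB gene at 16.8 RPKM and ZSCAN29 the highest SCAN gene at 8.89 RPKM. The lowest tested genes were ZBTB20, a repressor of alpha-fetoprotein in liver, at 0.0317 RPKM and ZSCAN12 at 0.404 RPKM. The 10 genes that were not tested reached at most 0.280 CPM in any library. Among them were ZBTB16 (PLZF), needed for germline stem cells and innate-like lymphocytes, with at most 1 count in a library, ZSCAN4, a gene of the early embryo, with at most 2, and ZSCAN10, a gene of embryonic stem cells, with at most 3. The other 7 were ZBTB8B, ZSCAN1, ZSCAN5B, ZSCAN5C, ZSCAN18, ZSCAN23 and ZKSCAN7.

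Promoters are shown for 5 genes that fell after loss of both NXF1 and GANP and for which every auxin library of the plain AID-TPR set was also below every untreated one, with sequences and positions taken from RefSeq (GRCh38.p14). Each runs from 250 bases before to 50 bases after an annotated start and is written in the direction of the gene. Capitals mark matches on either strand to CCAAT (the CCAAT box), GGGCGG (the GC box), TATAAA (the TATA box) and CCGGAAGT (a site of ETS factors). The BTB genes are ZBTB3 (chr11:62754111-62754410, minus strand), ZBTB5 (chr9:37465401-37465700, minus strand) and ZBTB9 (chr6:33454326-33454625, plus strand).
ZBTB3: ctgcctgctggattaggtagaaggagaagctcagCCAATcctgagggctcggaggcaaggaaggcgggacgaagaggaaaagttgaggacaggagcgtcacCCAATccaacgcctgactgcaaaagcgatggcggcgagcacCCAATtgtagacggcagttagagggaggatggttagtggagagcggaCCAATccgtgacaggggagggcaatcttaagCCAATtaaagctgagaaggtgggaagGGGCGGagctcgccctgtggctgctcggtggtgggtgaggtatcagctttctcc
ZBTB5: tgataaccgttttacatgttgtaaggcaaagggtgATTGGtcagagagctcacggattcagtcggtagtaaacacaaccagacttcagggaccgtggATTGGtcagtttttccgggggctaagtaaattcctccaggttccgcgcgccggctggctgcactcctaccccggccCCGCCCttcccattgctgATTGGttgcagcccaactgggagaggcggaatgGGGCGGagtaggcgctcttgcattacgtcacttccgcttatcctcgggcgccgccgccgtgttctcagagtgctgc
ZBTB9: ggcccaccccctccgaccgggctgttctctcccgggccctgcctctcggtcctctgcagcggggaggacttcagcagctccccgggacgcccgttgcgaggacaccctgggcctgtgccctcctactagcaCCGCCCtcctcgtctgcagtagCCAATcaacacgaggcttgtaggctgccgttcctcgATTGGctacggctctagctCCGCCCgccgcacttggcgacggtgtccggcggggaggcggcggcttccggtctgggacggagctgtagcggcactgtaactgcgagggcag
The SCAN genes are ZSCAN22 (chr19:58326744-58327043, plus strand) and ZKSCAN8, shown at the first of its annotated starts (chr6:28141633-28141932, plus strand).
ZSCAN22: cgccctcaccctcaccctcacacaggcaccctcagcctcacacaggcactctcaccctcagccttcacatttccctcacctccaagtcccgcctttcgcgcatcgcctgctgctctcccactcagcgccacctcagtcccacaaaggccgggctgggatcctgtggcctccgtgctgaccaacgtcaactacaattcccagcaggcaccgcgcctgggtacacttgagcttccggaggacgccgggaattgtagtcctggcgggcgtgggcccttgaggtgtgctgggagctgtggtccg
ZKSCAN8: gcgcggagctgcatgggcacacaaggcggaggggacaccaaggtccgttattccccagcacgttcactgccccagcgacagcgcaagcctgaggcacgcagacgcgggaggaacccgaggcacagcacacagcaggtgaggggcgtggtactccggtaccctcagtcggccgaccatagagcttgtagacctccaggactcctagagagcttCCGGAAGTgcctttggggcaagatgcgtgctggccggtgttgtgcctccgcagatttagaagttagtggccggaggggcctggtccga
ZBTB3 held 5 matches to CCAAT, ZBTB5 held 3 and ZBTB9 held 2, whereas neither SCAN promoter held any. ZKSCAN8 held 1 match to CCGGAAGT, and ZSCAN22 held none of the 4 motifs. The table has 35116 promoters. Of the 59 tested genes, 51 had a promoter there, with 97 starts in all. CCAAT was in 38.8% of 67 BTB and 43.3% of 30 SCAN promoters beside 34.6% of all promoters, and GGGCGG in 59.7% and 56.7% beside 45.0%. TATAAA was in 6 BTB promoters and no SCAN promoter, beside 11.5% of all. CCGGAAGT was in 5 BTB promoters (7.46%) and 9 SCAN promoters (30%), beside 4.14% of all. The 8 SCAN genes with CCGGAAGT were ZKSCAN3, ZKSCAN8, ZSCAN5A, ZSCAN9, ZSCAN21, ZSCAN25, ZSCAN29 and ZSCAN32. Of these 5 fell after GANP loss, where 55% of the tested SCAN genes and 11.5% of all genes fell. ZSCAN5A had a log2 fold change of 0.34 there. Of the 4 BTB genes with CCGGAAGT, ZBTB37 and ZBTB45 fell there (-0.88 and -0.56). ZBTB11 and ZBTB38 did not (-0.05 and -0.01). These matches describe letters in the windows and were not tested as sites.

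Loss of the export receptor NXF1 asks which RNAs change when bulk mRNA export is cut, and both families fell in part. A gene was called when the adjusted p (edgeR's quasi-likelihood test, Benjamini-Hochberg over 17812 genes) was below 0.05 and the fold was at least 1.3 or at most 0.7. After 2 h, 14 of 39 BTB and 8 of 20 SCAN genes fell and none rose, where 5.93% of all genes tested fell and 2.18% rose. The median log2 fold change was -0.41 over the BTB genes and -0.43 over the SCAN genes, beside 0.01 over all genes tested. In 42 of the 59 members all 3 auxin libraries lay below all 3 untreated ones, beside 20.9% of all genes. Library by library, the BTB median stood between -0.42 and -0.34 in the auxin libraries and between -0.06 and 0.07 in the untreated ones. The SCAN median stood between -0.55 and -0.28 against -0.06 and 0.03, so the groups did not overlap in either family.

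Loss of GANP, the scaffold of TREX-2, for 3 h lowered more of these genes, and also more of all genes, than NXF1 loss for 2 h. There, 16 of 39 BTB and 11 of 20 SCAN genes fell, where 11.5% of all genes fell. ZBTB49 was the single member that rose, beside 3.93% of all genes. The median log2 fold change was -0.45 over the BTB genes and -0.57 over the SCAN genes, beside 0.01 over all genes. In 41 of 59 members the auxin libraries all lay below the untreated ones, beside 24.9% of all genes.

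**Figure D1:**
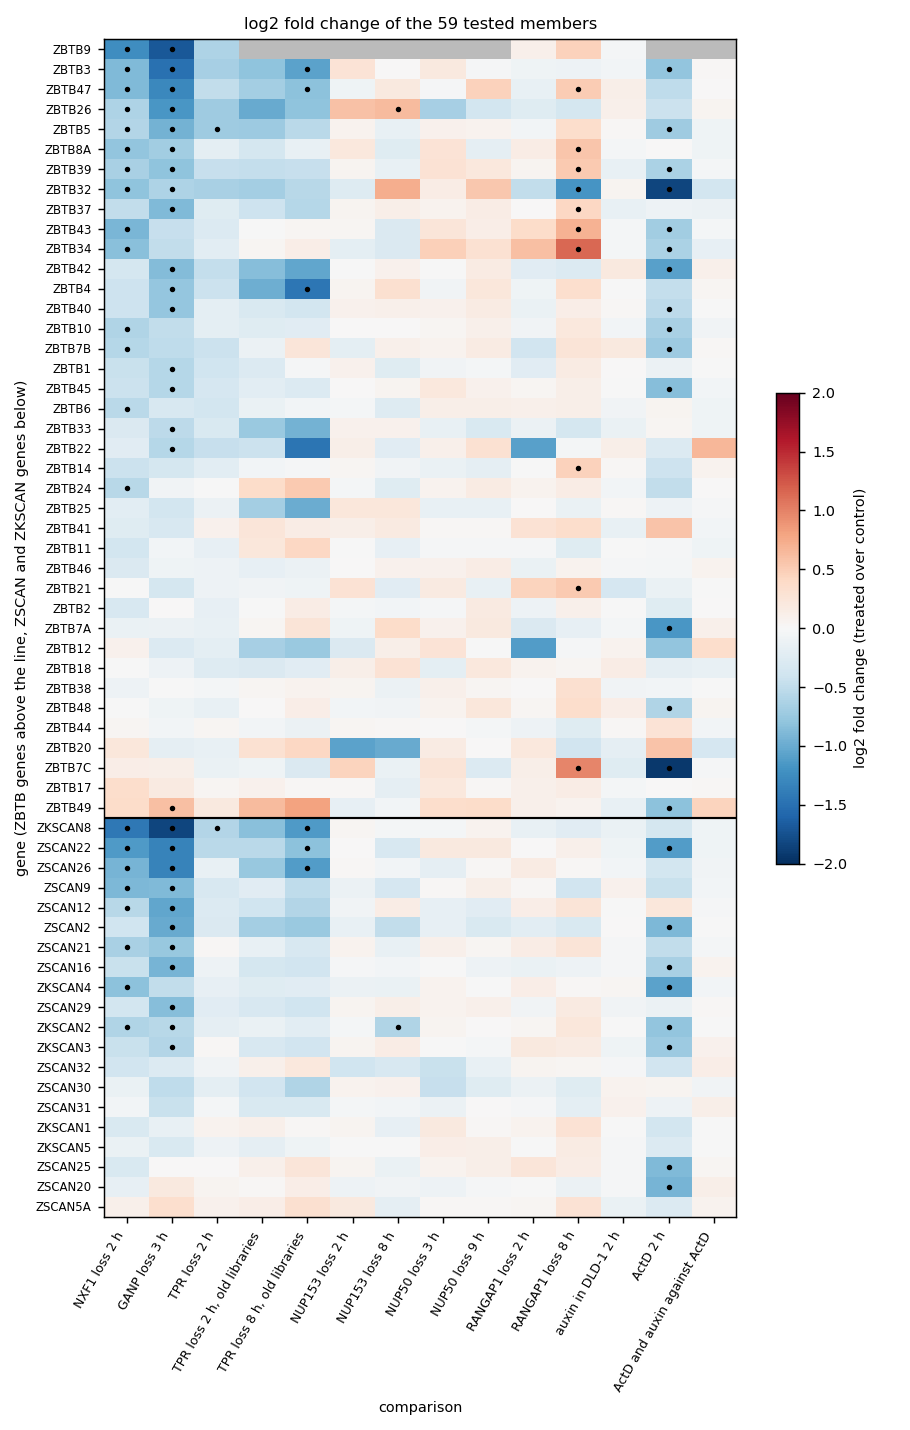
Heat map of the log2 fold change (color, from -2 to 2) of the 59 tested members (rows) in the 14 comparisons (columns), with BTB genes above the line and SCAN genes below it, each ordered by the mean of the NXF1 and GANP columns. Black dots mark called genes, gray cells mark ZBTB9 where it had no counts, and the dots gather in the NXF1, GANP, RANGAP1 8 h and ActD columns.

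Of the BTB genes, ZBTB9 changed most after both losses. It read 21.1, 22.9 and 21.6 CPM in untreated and 8.50, 9.94 and 9.21 CPM in auxin-treated AID-NXF1 libraries, a log2 fold change of -1.24 ± 0.08 (± SE throughout) with an adjusted p of 4.55e-06. In AID-GANP it read 19.9, 16.4 and 17.5 CPM without and 5.67, 5.66 and 5.20 CPM with auxin, a log2 fold change of -1.70 ± 0.10 (adjusted p = 2.89e-06). Every auxin library was below every untreated one in both lines, and the fall was 2.37-fold and 3.25-fold. ZBTB9 had no count in the old AID-TPR, NUP153, NUP50 and ActD libraries, so its values exist only in part of the series. ZBTB12, ZBTB22 and ZSCAN32 were also unevenly counted, at 4.54, 13.7 and 23.3 CPM in plain untreated AID-TPR libraries. In the old untreated ones they were at 0.14, 0.28 and 1.03 CPM. These 3 genes stay in the family medians and counts.

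ZBTB3 had lower counts. It read 6.35, 7.43 and 7.63 CPM before and 3.80, 3.68 and 4.05 CPM after auxin in AID-NXF1 (log2 fold change -0.89 ± 0.11, adjusted p = 0.000226). In AID-GANP the values were 8.36, 7.19 and 7.29 CPM before and 2.82, 2.79 and 2.52 CPM after auxin (log2 fold change -1.49 ± 0.12, adjusted p = 1.32e-05). The groups did not overlap in either line. ZBTB5, described as a repressor of the cell cycle inhibitor gene CDKN1A, read 18.8, 20.7 and 25.0 CPM before and 13.8, 12.8 and 16.4 CPM after auxin in AID-NXF1 (log2 fold change -0.58 ± 0.12, adjusted p = 0.00409). In AID-GANP it read 19.2, 17.8 and 17.4 CPM before and 9.80, 9.94 and 8.57 CPM after (log2 fold change -0.94 ± 0.09, adjusted p = 4.21e-05). Its fall in AID-NXF1 passed the fold limit narrowly, and without auxin replicate 2 or untreated replicate 3 its log2 fold change was -0.51 or -0.46 and the call was lost.

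ZBTB47 and ZBTB26 behaved alike in direction. ZBTB47 had log2 fold changes of -0.88 ± 0.10 after NXF1 loss and -1.29 ± 0.12 after GANP loss, with adjusted p of 0.000115 and 3.45e-05. ZBTB26 had -0.62 ± 0.12 and -1.16 ± 0.13, with adjusted p of 0.00452 and 8.17e-05. ZBTB34 and ZBTB43 were among the largest falls after NXF1 loss, at -0.83 ± 0.09 and -0.91 ± 0.08 (adjusted p = 5.02e-05 and 2.01e-05), and were not called after GANP loss, at -0.49 ± 0.10 and -0.45 ± 0.08. ZBTB49 went the other way. It read 5.60, 5.40 and 4.99 CPM in untreated and 9.33, 7.04 and 7.85 CPM in auxin-treated AID-GANP libraries, a log2 fold change of 0.60 ± 0.13 (adjusted p = 0.00532), with no overlap between the groups.

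Among the widely studied BTB genes, ZBTB7B (ThPOK), which directs T cells to the CD4 lineage, fell after NXF1 loss from 35.0, 34.4 and 42.3 CPM to 23.5, 23.0 and 28.6 CPM (log2 fold change -0.57 ± 0.10, adjusted p = 0.00164), and in AID-GANP its change of -0.51 ± 0.07 stopped just short of the fold limit. Without untreated replicate 3 the NXF1 value was -0.47 and not called. ZBTB33 (Kaiso), which binds methylated DNA, fell after GANP loss by a log2 fold change of -0.52 ± 0.08 (adjusted p = 0.000779), a call lost without auxin replicate 3 or untreated replicate 2, at -0.47 and -0.48. After NXF1 loss it was -0.28 ± 0.06, short of the fold limit. ZBTB17 (MIZ1), a partner of MYC, was at 0.35 ± 0.08 after NXF1 loss with every auxin library above every untreated one, also short of the fold limit. ZBTB7A, a repressor of fetal globin genes, was at -0.13 and -0.12 after NXF1 and GANP loss. ZBTB38, a methyl-CpG binder related to Kaiso, was at -0.10 and -0.01, ZBTB48, a telomere-binding protein, at -0.01 and -0.09, and ZBTB18, a neuronal repressor, at -0.01 and -0.11. None of these 4 genes was called after either loss. ZBTB20 reached at most 1.47 CPM in both lines and its SE after NXF1 loss was 1.28, so nothing can be read from it.

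Of the SCAN genes, ZKSCAN8 fell furthest of all members after both losses. It read 25.7, 28.5 and 28.0 CPM in untreated and 9.09, 10.5 and 10.7 CPM in auxin-treated AID-NXF1 libraries, a log2 fold change of -1.43 ± 0.08 (adjusted p = 1.95e-06). In AID-GANP the values were 31.1, 26.8 and 25.5 CPM and 9.65, 7.25 and 6.54 CPM, a log2 fold change of -1.83 ± 0.14 (adjusted p = 9.63e-06). These are falls of 2.70-fold and 3.56-fold, with wide gaps between the groups.

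ZSCAN22 went from 8.77, 9.46 and 9.39 CPM to 4.12, 3.88 and 4.61 CPM in AID-NXF1 (log2 fold change -1.13 ± 0.10, adjusted p = 2.52e-05). In AID-GANP it went from 10.3, 10.9 and 10.7 CPM to 4.47, 4.72 and 3.50 CPM (log2 fold change -1.33 ± 0.12, adjusted p = 2.81e-05). ZSCAN26 went from 9.75, 8.89 and 10.7 CPM to 5.19, 4.65 and 5.58 CPM in AID-NXF1 (log2 fold change -0.93 ± 0.11, adjusted p = 0.000129). In AID-GANP it went from 11.2, 10.5 and 11.1 CPM to 4.43, 4.28 and 4.33 CPM (log2 fold change -1.33 ± 0.10, adjusted p = 8.20e-06). In neither gene did the groups overlap. ZSCAN26 shares 292 exonic bases on the same strand with an unnamed coding gene model, so part of its reads may be counted elsewhere.

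ZSCAN9 was at -0.90 ± 0.11 and -0.89 ± 0.12 and was called in both lines, as was ZSCAN12 at -0.56 ± 0.14 and -1.03 ± 0.17, although the NXF1 call of ZSCAN12 was lost without auxin replicate 2 or untreated replicate 1 (-0.47 and -0.46). ZKSCAN4 was called after NXF1 loss only (-0.81 ± 0.16, adjusted p = 0.00336), with -0.49 ± 0.14 after GANP loss. ZSCAN2 was called after GANP loss (-1.01 ± 0.13, adjusted p = 0.000247) with -0.40 ± 0.15 after NXF1 loss. ZKSCAN3, a repressor of autophagy genes, fell after GANP loss (-0.59 ± 0.13, adjusted p = 0.00587), but not without untreated replicate 3 (-0.51), and was at -0.45 ± 0.14 after NXF1 loss. ZKSCAN1, known as the host of an abundant circular RNA, was at -0.30 and -0.15 and was not called. The difference between the lines was not past its threshold for ZKSCAN4 or ZSCAN2.

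**Figure D2:**
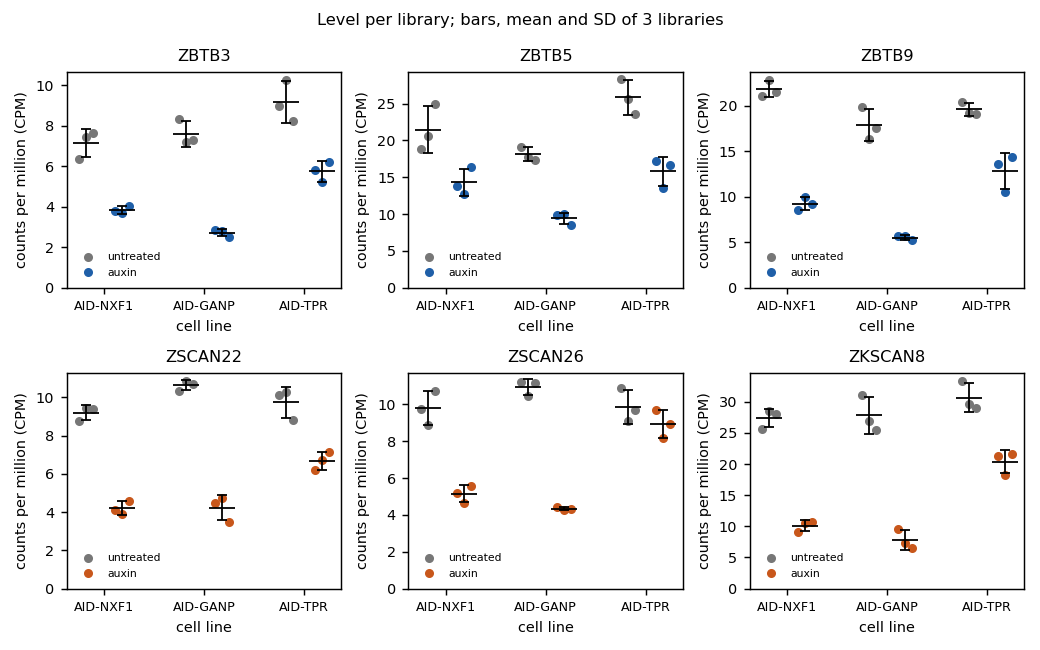
Levels (CPM, linear axis from 0) of 6 members in each of the 3 untreated (gray) and 3 auxin-treated (color) libraries of the AID-NXF1, AID-GANP and plain AID-TPR lines, with bars for the mean and SD. The auxin libraries lie below the untreated ones in every panel and line except ZSCAN26 in AID-TPR, where the groups overlap.

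Many of the SCAN genes that fell lie together. On chromosome 6, 9 SCAN genes occupy 336 kb (GRCh38, 28107689 to 28443502), and all but ZSCAN23 were tested. After GANP loss 6 of these 8 fell, and after NXF1 loss 5 did, where 11.5% and 5.93% of all genes fell. In order along the chromosome, the log2 fold changes after NXF1 and GANP loss were -0.45 and -0.93 for ZSCAN16, -1.43 and -1.83 for ZKSCAN8, and -0.90 and -0.89 for ZSCAN9. ZKSCAN4 and ZSCAN26 follow, with the values above. ZSCAN31, between ZSCAN26 and ZKSCAN3 on the minus strand, was the least changed of the 8 at -0.06 and -0.44. Adjacent genes of the run thus differed in size of change, ZSCAN26 and ZSCAN31 among them.

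The NXF1 and GANP lines share no library. Of the 22 members that fell after NXF1 loss, 15 (68.2%) also fell after GANP loss, and these were 55.6% of the 27 that fell there. Of all 59 members 37.3% fell after NXF1 loss and 45.8% after GANP loss, beside 5.93% and 11.5% of all genes tested. The same overlap over all genes is not given here, so these values do not set the members apart from other genes. The shared genes were ZBTB3, ZBTB5, ZBTB8A, ZBTB9, ZBTB26, ZBTB32, ZBTB39 and ZBTB47 of the BTB family, and ZKSCAN2, ZKSCAN8, ZSCAN9, ZSCAN12, ZSCAN21, ZSCAN22 and ZSCAN26 of the SCAN family. The SCAN lists overlapped as 7 of 8 and 7 of 11, the BTB lists as 8 of 14 and 8 of 16. Across the 59 members the log2 fold changes of both losses had a Spearman rho of 0.75. Across members rho was 0.08 between the mean level and the NXF1 change and 0.23 between the mean level and the GANP change. The GANP call of ZBTB32 was lost without auxin replicate 3 or untreated replicate 1 or 2 (-0.48 to -0.55), and that of ZKSCAN2 without untreated replicate 3 (-0.51). ZBTB8A shares 1782 exonic bases on the same strand with a longer coding gene model and is therefore uncertain.

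The difference between the losses was tested gene by gene as an interaction (adjusted p below 0.05, at any fold). It passed for 3 of 59 members between GANP and NXF1 loss. ZBTB24, whose mutation causes an immunodeficiency with unstable centromeres, fell after NXF1 loss and was at -0.07 after GANP loss, a difference of 0.52 ± 0.11 (adjusted p = 0.0196). ZBTB43 differed by 0.49 ± 0.12 in the same direction (adjusted p = 0.031), and ZSCAN29 by -0.44 ± 0.09, being lower after GANP loss (adjusted p = 0.0136). Over all genes 1.36% were higher and 1.25% lower. With the replicate number as a block, 23 members passed, and without AID-NXF1 auxin replicate 1 or untreated replicate 2 1 did. Against auxin in untagged DLD-1, 31 members differed after NXF1 loss and 32 after GANP loss, where 9.71% and 20.1% of all genes did, and of these 30 and 30 were lower. The direction in DLD-1 rests on labels that CYP1A1 went against. With the labels of DLD-1 turned, an alternative added after seeing the data, 31 and 34 members differed, all lower. Of all genes 12.6% and 20.9% differed with the labels turned. Of the members, 29 and 29 passed either way in the same direction.

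Exon number went with the size of the fall. The canonical transcript of the tested BTB genes had a median of 3 exons and that of the SCAN genes 5.5, beside 9 over tested protein-coding genes. Among BTB genes with 1 to 3 exons, the median log2 fold change was -0.43 after NXF1 loss and -0.52 after GANP loss (20 genes), and with 8 or more exons it was 0.02 and -0.07 (8 genes). Among all tested protein-coding genes with 1 to 3 exons the medians were -0.19 and -0.35, and with 8 or more 0.03 and 0.07. In the class of 4 to 7 exons the 16 SCAN genes had medians of -0.45 and -0.57 and the 11 BTB genes of -0.50 and -0.49, beside -0.03 over 3738 and -0.01 over 3739 protein-coding genes with counts. In that class 43.8% and 56.3% of the SCAN genes and 45.5% and 45.5% of the BTB genes were called lower. Of the protein-coding genes in it 9.58% and 12.7% were. With 1 to 3 exons these shares were 45% and 50% of the 20 BTB genes, against 20.6% and 37.9% of the protein-coding genes. With 8 or more exons they were 0% and 12.5% of the 8 BTB genes, against 2.30% and 6.16%. Spearman's rho between exon number and log2 fold change over the 59 members was 0.29 after NXF1 loss, 0.43 after GANP loss and 0.62 after TPR loss. Under ActD the BTB medians were -0.63 with 1 to 3 exons (19 genes) and -0.01 with 8 or more (8 genes). Those of protein-coding genes were -0.20 and 0.06. The SCAN medians under ActD went the other way at the upper end, with -0.37 for 4 to 7 exons (16 genes) and -0.91 for 8 or more (2 genes). Members share libraries and these values are descriptions.

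**Figure D3:**
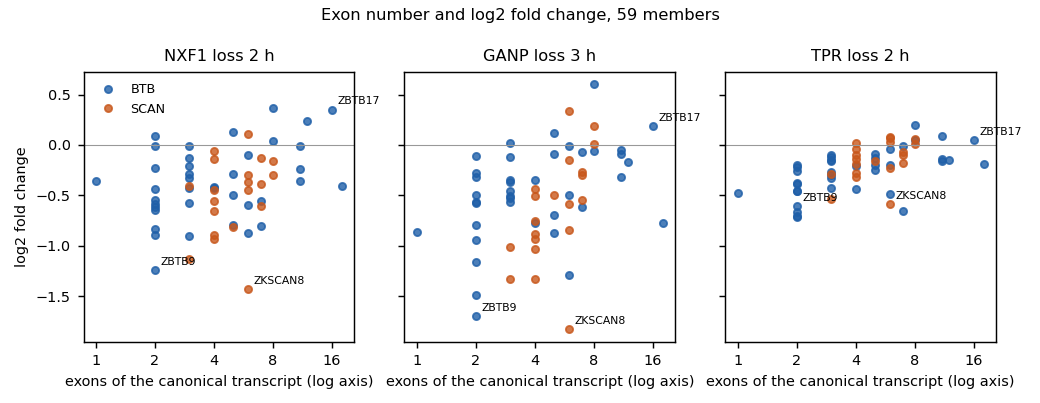
Log2 fold change (vertical axis) of the 59 tested members against the exon number of the canonical transcript (log axis) after loss of NXF1, GANP and TPR, with BTB genes in blue and SCAN genes in orange. ZBTB9 with 2 exons lies near the bottom of the NXF1 and GANP panels, ZBTB17 with 16 exons lies above 0 in all 3, and ZKSCAN8 with 6 exons lies lower than the other genes of its exon number.

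Loss of TPR, the basket protein that holds TREX-2 at the pore, gave smaller changes. In the plain libraries at 2 h, ZBTB5 and ZKSCAN8 were the members that fell, 2 of 59 where 0.404% of all genes fell. ZBTB5 read 28.3, 25.6 and 23.6 CPM without and 17.2, 13.6 and 16.6 CPM with auxin, a log2 fold change of -0.71 ± 0.11 (adjusted p = 0.0285). ZKSCAN8 read 33.3, 29.7 and 29.0 CPM without and 21.2, 18.2 and 21.7 CPM with auxin, a log2 fold change of -0.59 ± 0.10 (adjusted p = 0.0294). In neither gene did the groups overlap, and these were the members that fell after NXF1, GANP and TPR loss alike. Leaving out any of the 6 libraries left 0 or 1 member called (1 without auxin replicate 2, 0 without any other). The fit with the replicate number as a block called 7, beside 389 of 17812 genes.

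Other members had values of similar size that did not pass. ZBTB3 read 8.97, 10.3 and 8.25 CPM without and 5.82, 5.21 and 6.23 CPM with auxin (log2 fold change -0.67 ± 0.13, adjusted p = 0.051), and ZBTB9 read 20.4, 19.3 and 19.2 CPM and 13.6, 10.6 and 14.3 CPM (log2 fold change -0.61 ± 0.12, adjusted p = 0.051). ZBTB26 was at -0.72 ± 0.16 (adjusted p = 0.0853) and ZSCAN22 at -0.54 ± 0.12 (adjusted p = 0.0738). These 4 genes were called by DESeq2, without the filter, and with the block. In 27 of 59 members the auxin libraries all lay below the untreated ones, beside 9.44% of all genes tested. The BTB median of the log2 fold change was -0.21 and the SCAN median -0.12, beside 0.01 over all genes. Per library the BTB median ranged from -0.28 to -0.20 with auxin and from -0.05 to 0.03 without, whereas the SCAN median ranged from -0.16 to -0.03 against -0.06 to 0.02 and overlapped.

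NXF1 loss lowered 8 of 59 members more than TPR loss did (interaction test), where 2.09% of all genes differed in that direction. ZKSCAN8 differed by -0.85 ± 0.13 (adjusted p = 0.0037) and ZSCAN26 by -0.79 ± 0.16 (adjusted p = 0.0157). ZSCAN26 read 10.9, 9.08 and 9.68 CPM without and 9.69, 8.17 and 8.94 CPM with auxin in AID-TPR, where the groups overlapped. The other 6 were ZBTB8A, ZBTB9, ZBTB24, ZBTB34, ZBTB43 and ZSCAN21, with differences from -0.67 to -0.55. With the block 22 members differed, all lowered more by NXF1 loss except ZBTB17, which differed by 0.29 ± 0.07. The share of all genes with the block is not given here. Without AID-NXF1 auxin replicate 2 or AID-TPR untreated replicate 3, 3 members differed.

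The old AID-TPR libraries gave an independent set of the 2 h loss. None of the 59 members was called there by edgeR, where 0.309% of all genes fell, although 17 had an unadjusted p below 0.05. DESeq2 called 7, of which 5 BTB genes and 1 SCAN gene fell and 1 BTB gene rose. Of 17812 genes, DESeq2 called 314 lower and 99 higher. ZBTB26 was at -1.02 ± 0.20 (adjusted p = 0.066), ZBTB5 at -0.73 ± 0.15 (adjusted p = 0.0792) and ZKSCAN8 at -0.84 ± 0.20 (adjusted p = 0.134), in each case with all auxin libraries below all untreated ones. The log2 fold changes of the 58 members with counts in both sets had a Spearman rho of 0.71 between them. The per-library medians of the BTB genes, -0.26 to -0.06 with auxin and -0.07 to 0.05 without, overlapped in the old set, while those of the SCAN genes, -0.39 to -0.11 and -0.07 to 0.06, did not, the reverse of the plain set. When all 6 pairs of AID-TPR libraries were fitted together, 7 members fell, with ZBTB5 at -0.73 ± 0.09 (adjusted p = 0.000520), ZBTB26 at -0.87 ± 0.13 (0.00177) and ZKSCAN8 at -0.72 ± 0.12 (0.00316).

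After 8 h without TPR, 3 BTB and 3 SCAN genes fell, where 2.36% of all genes did. ZBTB4, a methyl-CpG binder of the Kaiso group, read 40.6, 41.8 and 51.9 CPM in untreated and 10.5, 26.2 and 12.3 CPM in auxin libraries (log2 fold change -1.45 ± 0.31, adjusted p = 0.0391). ZKSCAN8 read 29.5, 35.6 and 34.4 CPM and 13.7, 20.2 and 11.3 CPM (log2 fold change -1.13 ± 0.21, adjusted p = 0.0298), and ZSCAN26 read 12.9, 12.6 and 11.7 CPM and 4.37, 8.13 and 4.63 CPM (log2 fold change -1.11 ± 0.25, adjusted p = 0.0439). In these 3 genes auxin replicate old2 was the highest of the auxin libraries and the groups still did not overlap. ZBTB3 was at -1.07 ± 0.19, ZBTB47 at -0.81 ± 0.16 and ZSCAN22 at -0.82 ± 0.16, with adjusted p of 0.0257, 0.0326 and 0.0334. The number of called members rested on the libraries. Without auxin replicate old2 it was 21, of which 9 BTB and 8 SCAN genes fell and 4 BTB genes rose. Without any other library of the 6 it was 0. DESeq2 called 15, of which 8 BTB and 5 SCAN genes fell and 2 BTB genes rose. Of 17812 genes, DESeq2 called 1074 lower and 820 higher. The SCAN median was -0.35 and the BTB median -0.14, beside -0.00 over all genes. The 20 SCAN genes had a Spearman rho of 0.93 with their values after GANP loss, a line that shares no library with these. Over 38 BTB genes that rho was 0.68. For plain TPR loss at 2 h the rho with GANP loss was 0.79 over SCAN and 0.84 over BTB genes.

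Loss of the other basket proteins gave few calls. After NUP153 loss for 2 h no member was called by edgeR, beside 0.0225% of all genes, and 6 had an unadjusted p below 0.05. DESeq2 called 1 member, beside 38 of 17812 genes. The replicate block called 2 (ZBTB26 and ZBTB7C, named after their values were seen), beside 105 of 17812 genes. ZBTB26 read 7.98, 8.76 and 7.62 CPM without and 11.6, 12.2 and 12.8 CPM with auxin, a log2 fold change of 0.59 ± 0.10 (adjusted p = 0.119, and 7.10e-06 with the block). At 8 h it was called, reading 13.0, 11.3 and 13.4 CPM (log2 fold change 0.63 ± 0.11, adjusted p = 0.0232), where 0.915% of all genes rose. Its direction was thus opposite to that after TPR, NXF1 and GANP loss, and the difference between TPR and NUP153 loss at 2 h was -1.31 ± 0.19 (adjusted p = 0.00531). ZKSCAN2 fell at 8 h from 17.3, 16.4 and 18.0 CPM to 12.7, 9.84 and 11.4 CPM (log2 fold change -0.61 ± 0.11, adjusted p = 0.0247), where 0.404% of all genes fell. Both calls were lost without NUP153 auxin replicate 2 or 3 or untreated replicate 1 or 2. ZBTB3, ZBTB5 and ZBTB1 also differed between TPR and NUP153 loss, by -0.96, -0.79 and -0.48 (adjusted p = 0.0469, 0.0164 and 0.0205), all 4 in the BTB family, where 0.64% of all genes differed in that direction. With the block, 19 members did.

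NUP50 loss gave no called member at 3 h or 9 h by edgeR, where 0.18% and 0.365% of all genes were called. There were 6 and 9 members at an unadjusted p below 0.05. DESeq2 called 1 at each time, beside 92 and 170 of 17812 genes. Without NUP50 auxin replicate 1 at 3 h or untreated replicate 1 at 9 h edgeR called 1 and 2. The BTB medians were 0.08 and 0.11 and the SCAN medians 0.01 and 0.02. Auxin in untagged DLD-1 gave no called member by edgeR, beside 0.0561% of all genes, or by DESeq2, beside 24 of 17812 genes. There were 6 members at an unadjusted p below 0.05. Log2 fold changes of members there ran from -0.33 to 0.20, and both medians were -0.02.

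Among the members, loss of RANGAP1 for 8 h gave calls in the BTB family alone. Of the 39 BTB genes 9 rose and 1 fell, and of the 20 SCAN genes none was called by edgeR or DESeq2, although 7 had an unadjusted p below 0.05. The difference between the families was not tested. Over all genes 8.23% rose and 6.62% fell. ZBTB34 read 11.6, 12.4 and 13.7 CPM in untreated and 24.9, 29.3 and 29.9 CPM in auxin libraries, a 2.22-fold rise (log2 fold change 1.15 ± 0.10, adjusted p = 4.22e-05). ZBTB7C, a relative of ZBTB7A and ZBTB7B, read 6.78, 4.69 and 6.07 CPM and 11.1, 10.6 and 13.0 CPM (log2 fold change 0.98 ± 0.14, adjusted p = 0.000798), and ZBTB43 read 21.4, 24.6 and 23.2 CPM and 35.6, 38.7 and 38.1 CPM (log2 fold change 0.70 ± 0.08, adjusted p = 0.000177). In these 3 genes every auxin library was above every untreated one.

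The other BTB genes that rose were ZBTB8A, ZBTB39, ZBTB21, ZBTB47, ZBTB14 and ZBTB37, with log2 fold changes from 0.42 to 0.56. ZBTB8A, ZBTB34, ZBTB39, ZBTB43 and ZBTB47 had fallen after NXF1 loss. ZBTB32, a repressor in activated lymphocytes, was the single member that fell, from 4.17, 3.78 and 5.62 CPM to 1.91, 1.76 and 2.29 CPM (log2 fold change -1.19 ± 0.19, adjusted p = 0.00127). The call of ZBTB37 was lost without auxin replicate 2 or 3 or untreated replicate 1 or 2. The SCAN genes ran from a log2 fold change of -0.39 to 0.29, with a median of 0.07 beside 0.14 over the BTB genes, and the per-library medians of treated and untreated libraries overlapped in both families. At 2 h no member was called by edgeR, beside 0.545% of all genes, and 5 had an unadjusted p below 0.05. DESeq2 called 2 members, beside 176 of 17812 genes. The block called 2 (ZBTB34 at 0.59 ± 0.07 and ZBTB21 at 0.44 ± 0.06), beside 427 of 17812 genes. Without auxin replicate 1 edgeR called 1.

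**Figure D4:**
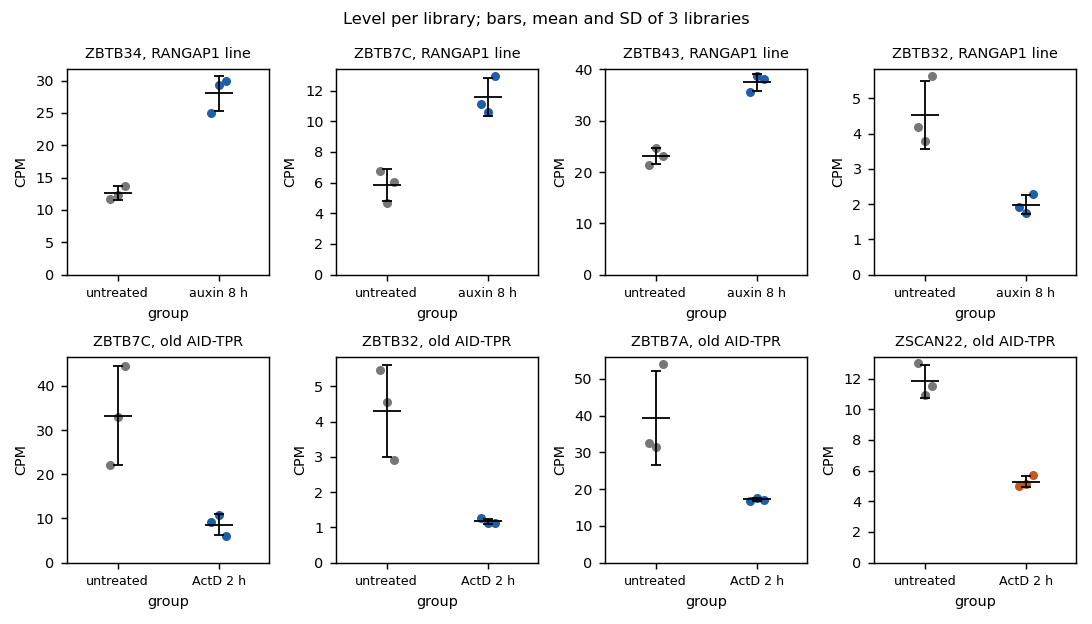
Levels (CPM, linear axes from 0) of 4 members in untreated and 8 h auxin-treated RANGAP1 libraries (top) and of 4 members in untreated old AID-TPR and ActD libraries (bottom), 3 libraries each, with bars for the mean and SD. ZBTB34, ZBTB7C and ZBTB43 rise and ZBTB32 falls without overlap in the top row, and all 4 genes of the bottom row fall without overlap.

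ActD for 2 h blocks new transcription, so the RNA that remains reflects what was made before. Relative to all genes, 15 of 39 BTB and 8 of 20 SCAN genes fell and none rose, where 12.3% of all genes fell and 8.79% rose. The median log2 fold change was -0.46 over 38 BTB genes with counts and -0.41 over the SCAN genes, beside -0.01 over all genes. These values are scaled within each library, so they give the change relative to other RNAs and not the loss per cell. The ActD libraries do not carry the old label of their controls, so a difference between label sets cannot be told apart from ActD.

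ZBTB7C fell furthest, from 22.1, 33.0 and 44.6 CPM in untreated old AID-TPR libraries to 9.10, 10.7 and 5.96 CPM with ActD (log2 fold change -1.94 ± 0.27, adjusted p = 0.00101). ZBTB32 fell from 5.46, 4.55 and 2.89 CPM to 1.25, 1.13 and 1.13 CPM (log2 fold change -1.84 ± 0.26, adjusted p = 0.00114). ZBTB7A fell from 32.7, 31.3 and 54.0 CPM to 16.9, 17.5 and 17.1 CPM (log2 fold change -1.16 ± 0.19, adjusted p = 0.00263). The untreated values of ZBTB7C and ZBTB7A were spread widely, whereas the ActD values of ZBTB7A lay close together. ZBTB7B fell by a log2 fold change of -0.72 ± 0.09, so all 3 ZBTB7 genes fell under ActD. ZBTB42 and ZBTB45 were at -1.09 ± 0.13 and -0.85 ± 0.13, both called. ZBTB48 was at -0.60 ± 0.16 (adjusted p = 0.0196), a call lost without untreated replicate old1 or old2.

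At the other end, ZBTB20, ZBTB41 and ZBTB44 had the highest BTB values, 0.57 ± 0.47, 0.56 ± 0.19 and 0.27 ± 0.10, and none was called (adjusted p = 0.425, 0.0526 and 0.0584). ZBTB17, ZBTB33 and ZBTB38 were at 0.01, 0.04 and -0.06. Of the SCAN genes, ZSCAN22 fell from 13.0, 10.9 and 11.5 CPM to 5.00, 5.12 and 5.70 CPM (log2 fold change -1.12 ± 0.15, adjusted p = 0.000816), with ZKSCAN4 at -1.07 ± 0.19 and ZSCAN20 at -0.93 ± 0.15 next (adjusted p = 0.00367 and 0.00238). ZSCAN2 and ZSCAN25 fell by -0.90 ± 0.18 and -0.88 ± 0.14. ZSCAN12, ZSCAN30 and ZSCAN31 were highest at 0.22, 0.05 and -0.10, and none was called.

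Some genes that fell furthest after loss of export factors were not called under ActD, and others were. ZBTB3 and ZSCAN22, among the largest falls after both NXF1 and GANP loss, also fell under ActD. Differences between ActD and these losses were not tested. Under ActD, ZKSCAN8 was at -0.35 ± 0.14 (adjusted p = 0.0886) and ZSCAN26 at -0.37 ± 0.14 (adjusted p = 0.0863), and neither was called. ZSCAN20 and ZSCAN25, which fell under ActD, were at 0.19 and 0.01 after GANP loss. Over the 58 members with counts in both, rho between the ActD and GANP changes was 0.15, and between the ActD and NXF1 changes 0.27. Of the 22 members that fell after NXF1 loss, 11 also fell under ActD, and of the 27 that fell after GANP loss 12 did. Of all 59 members 39.0% fell under ActD, beside 12.3% of all genes. ZBTB9, which fell after both losses, had no counts in the ActD comparison and could not be called there.

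Auxin on top of ActD changed no member by edgeR or DESeq2, and 1 had an unadjusted p below 0.05. Of all genes 0% were called, with 78 at an unadjusted p below 0.05 and 0 called by DESeq2. The BTB median was -0.01 and the SCAN median -0.01. Whether the TPR effect differed with and without ActD was tested as an interaction. No member passed by edgeR, beside 0.0225% of all genes, and 12 had an unadjusted p below 0.05. By DESeq2 1 member passed, and the share over all genes by DESeq2 is not given here.

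Set side by side, the medians of the BTB and SCAN families had the same sign in the 4 comparisons with the most called members. The medians of BTB and SCAN genes were -0.41 and -0.43 after NXF1 loss, -0.45 and -0.57 after GANP loss, -0.46 and -0.41 under ActD, and 0.14 and 0.07 after RANGAP1 loss for 8 h. The share that fell was 35.9% of BTB and 40% of SCAN genes after NXF1 loss, 41.0% and 55% after GANP loss, and 38.5% and 40% under ActD. In the AID-TPR line the order of the medians depended on the libraries: the BTB median was the lower in the plain set and the SCAN median in the old set. Over the 14 comparisons, 28 BTB and 14 SCAN genes were called at least once and 17 tested members never. These shares describe the lists and were not tested against each other.

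**Figure D5:**
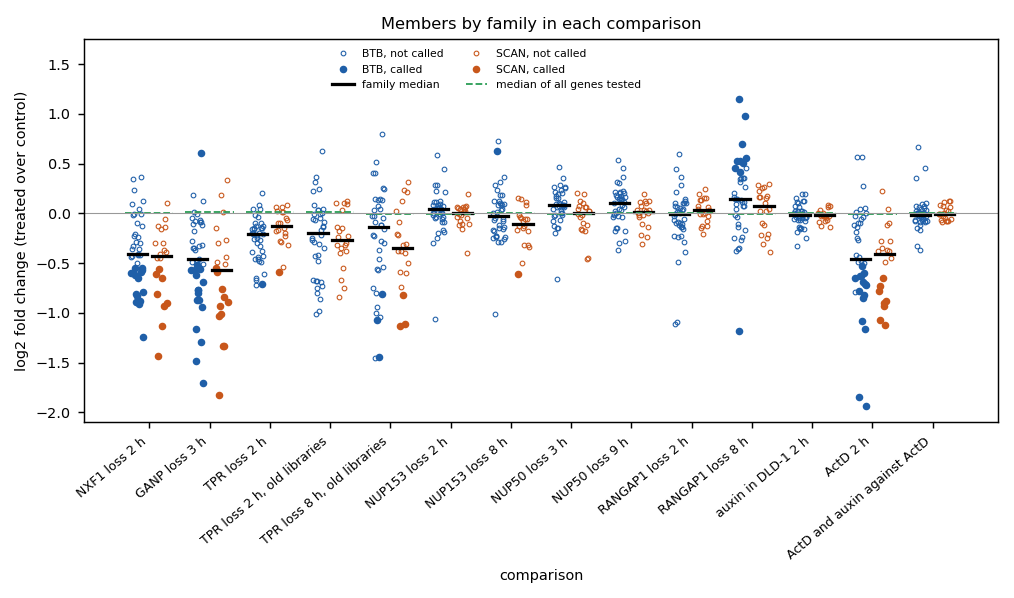
Log2 fold change (vertical axis) of each tested BTB (blue) and SCAN (orange) gene in the 14 comparisons, with filled points for called genes, black bars for family medians and a dashed green line for the median of all genes tested. The medians of both families lie below the dashed line after loss of NXF1 and GANP and under ActD, and filled blue points stand above 0 after RANGAP1 loss for 8 h with no filled orange point.

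Genes that carry the same domains under other names were followed beside the members. Of 7 BTB zinc finger genes outside the symbol rule, 6 were tested, and of 24 SCAN genes 21. After NXF1 loss 1 BTB and 7 SCAN genes of these lists fell, with medians of -0.37 and -0.38, and after GANP loss 2 and 11 fell and 1 of each rose, with medians of -0.31 and -0.55. Of all genes 5.93% fell after NXF1 loss, and 11.5% fell and 3.93% rose after GANP loss. ZNF263 was at -0.87 ± 0.07 and -0.90 ± 0.08 after NXF1 and GANP loss, and HIC2 at -0.66 ± 0.11 and -0.97 ± 0.09, all 4 values called. BCL6, the BTB repressor of the germinal center, went the other way in AID-GANP (0.62 ± 0.09, adjusted p = 0.00056) and AID-TPR (0.61 ± 0.10, adjusted p = 0.0294), rose after RANGAP1 loss for 2 h (0.91 ± 0.09) and fell after NUP153 loss for 8 h (-0.74 ± 0.12) and under ActD (-1.12 ± 0.15). Under ActD 3 BTB and 6 SCAN genes of these lists fell, where 12.3% of all genes did, and none rose. After RANGAP1 loss for 8 h, 2 BTB genes of these lists rose, and of the SCAN genes 2 rose and 2 fell. Of all genes 8.23% rose and 6.62% fell there. Calls at 8 h were thus not limited to BTB genes once these lists are included.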

How the data were processed

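Total RNA depleted of ribosomal RNA was sequenced from DLD-1 lines with a stranded kit (TruSeq), and the authors deposited raw read counts per Ensembl gene, 1 file per library. Per the submitters' processing notes, CASAVA 1.8.2, STAR 2.6.1c and featureCounts 1.5.2 were used with GRCh38, while the study's methods name other versions of STAR and featureCounts and Ensembl release 87. The strand setting and the handling of overlapping genes are not given in the sources used here. Of 58051 identifiers, 56948 were matched to GENCODE release 44 for names, exons and positions, and 1103 were not.

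Genes above 1 CPM in more than 5% of the 60 libraries without ActD (at least 4) were kept, which left 17812. Each comparison was fitted on its own 6 libraries in edgeR 4.0.16 (R 4.3.3) with TMM scaling and the quasi-likelihood test, two-sided, with Benjamini-Hochberg adjustment over all genes kept. Genes called in DLD-1 (no member among them) were removed from the calls of tagged lines without ActD. SE was taken from the log2 fold change and its F statistic. Printed CPM values were scaled by TMM within a line and label set, with the ActD libraries placed in the old set. Family medians per library used log2 of CPM plus 0.5 relative to the untreated mean, and genes without counts in a comparison were left out of medians. Differences between comparisons were tested as interaction terms, 7 in all. The code was tested on simulated counts. DESeq2 1.42.0, other scalings, no filter, a replicate block, a joint fit of all 66 libraries and leaving out each library were tried as alternatives. Turning the 2 DLD-1 labels was added after seeing the data.

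The members and lists were chosen with earlier results of these data known. Named genes were, per comparison, up to 10 called members in each direction by size with a mean of at least 20 counts, those called alike after NXF1, GANP and TPR loss, those past an interaction threshold (up to 6 a direction), a list of well-studied members, and the 3 highest and lowest per family under ActD. Per the study's methods and figure legends, the 3 libraries of an RNA-seq group were separate biological replicates, and the labels number them. Same-numbered treated and untreated libraries deviated together, with all 3 correlations above 0.1, in 7 of 13 comparisons: NXF1, GANP, plain TPR, NUP153 2 h, both RANGAP1 times and ActD with auxin. No replicate pair agreed within counting noise. Depth was 18943661 to 55411411 counts per library, with a median of 32285399.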

Additional observations from a re-analysis of the deposited data

Results flagged for a closer look

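Differences between comparisons passed the interaction test (edgeR, adjusted p below 0.05) for the following members, up to 6 in each direction per contrast. Each value is the first log2 fold change minus the second, and no explanation was tested.

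NXF1 loss lowered ZKSCAN8 (-0.85), ZSCAN26 (-0.79), ZSCAN21 (-0.67), ZBTB43 (-0.64), ZBTB9 (-0.64) and ZBTB34 (-0.62) more than TPR loss did. Between GANP and NXF1 loss the difference was -0.44 for ZSCAN29, 0.52 for ZBTB24 and 0.49 for ZBTB43. Between TPR and NUP153 loss it was -1.31 for ZBTB26, -0.96 for ZBTB3, -0.79 for ZBTB5 and -0.48 for ZBTB1.

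Differences against auxin in untagged DLD-1 rest on labels whose direction CYP1A1 went against, so the values with those labels turned, an alternative added after seeing the data, stand beside them. TPR loss differed by -0.83 for ZBTB26, -0.74 for ZBTB5, -0.64 for ZBTB7B and -0.41 for ZBTB1. With the labels turned these were -0.61, -0.69, -0.24 and -0.39 and none passed, while ZKSCAN8 did at -0.72 (edgeR, adjusted p = 0.0260). NXF1 loss differed by -1.31 for ZKSCAN8, -1.21 for ZBTB9, -1.06 for ZSCAN22, -1.01 for ZBTB47, -0.98 for ZSCAN9 and -0.89 for ZSCAN26, and by 0.38 for ZBTB17, the single member higher in that contrast. With the labels turned the 6 lower members passed in the same direction and ZBTB17, at 0.31, did not (edgeR, adjusted p = 0.0781). GANP loss differed by -1.69 for ZKSCAN8, -1.65 for ZBTB9, -1.43 for ZBTB3, -1.41 for ZBTB47, -1.27 for ZSCAN26 and -1.26 for ZBTB26, and by 0.77 for ZBTB49 and 0.48 for ZSCAN5A. With the labels turned the 6 lower members passed in the same direction, and ZBTB49 (0.46) and ZSCAN5A (0.21) did not (edgeR, adjusted p = 0.10 and 0.336).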

How the results depend on the processing

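No alternative reversed a count or a called member. After NXF1 loss 21 of 22 called members and after GANP loss 26 of 28 kept their call under every other scaling, tool, filter and fit, as did 9 of 10 after RANGAP1 loss for 8 h and 22 of 23 under ActD. With each library left out in turn these were 16, 22, 9 and 21. Of 336 family medians under alternatives, 299 moved by less than 1 SD between libraries. The other comparisons depended on the setting, and the cause was not tested. For plain TPR loss (2 members called) DESeq2 gave 6, no filter 6, the replicate block 7, all 6 library pairs 7 and a joint fit of all libraries 6. For TPR loss at 2 h in the old libraries (0) DESeq2 gave 7, no filter 9, the block 3 and the joint fit 13. At 8 h (6) library sizes alone gave 11, DESeq2 15, no filter 14, the block 12 and the joint fit 18. NUP153 loss at 2 h (0) gave 1 with DESeq2, 1 without the filter and 2 with the block, and at 8 h (2) the block gave 0. NUP50 loss (0) gave 1, 1 and 2 at 3 h and 1, 1 and 2 at 9 h, the block calling ZBTB26 (-0.67) and ZBTB34 (0.47) and then ZBTB32 (0.55) and ZBTB47 (0.45). RANGAP1 loss at 2 h (0) gave 2, 3 and 2, and 1 in the joint fit. Members that differed between NXF1 and TPR loss (8) were 22 with the block. Between GANP and NXF1 loss (3) they were 1 with library sizes alone and 23 with the block. Between TPR and NUP153 loss (4) they were 9 with DESeq2 and 19 with the block. Between TPR loss and auxin in DLD-1 (4) they were 2 with RLE factors, 2 with library sizes alone, 10 with DESeq2, 17 with the block, 1 in the joint fit and 1 with the DLD-1 labels turned. Between NXF1 loss and DLD-1 (31) the joint fit gave 16. For the TPR effect with against without ActD (0), DESeq2 gave 1, no filter 3, the block 3 (ZBTB5, ZBTB26 and ZBTB42, at 0.66, 1.09 and 0.95) and the joint fit 10. The block moved no other count of members by over 1.5 times. No paired analysis was possible for ActD against the old untreated libraries because they share no replicate numbers.

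With a library left out, counts ranged from 21 to 25 after NXF1 loss, 25 to 33 after GANP loss, 0 to 1 after plain TPR loss, 0 to 1 and 0 to 21 in the old TPR libraries at 2 and 8 h, 0 to 0 and 0 to 3 after NUP153 loss at 2 and 8 h, 0 to 1 and 0 to 2 after NUP50 loss at 3 and 9 h, 0 to 1 and 9 to 12 after RANGAP1 loss at 2 and 8 h, 22 to 26 under ActD, and 0 to 0 in DLD-1 and for auxin under ActD. Members that differed ranged from 3 to 8 (NXF1 and TPR), 1 to 4 (GANP and NXF1), 1 to 4 (TPR and NUP153), 0 to 4 (TPR and DLD-1), 26 to 34 (NXF1 and DLD-1), 28 to 37 (GANP and DLD-1) and 0 to 0 (ActD). Low counts limit members such as ZBTB20, and those under the filter were not testable at this depth.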
